A study of Arabidopsis thaliana with 6 samples.

Results

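Among 30245 annotated transposons of Arabidopsis thaliana, 631 carried small RNAs that were mostly shorter than 24 nt and numerous enough to read. The small RNAs were sequenced from sorted grains of mature pollen. A transposon was taken when the 6 libraries together gave it at least 60 reads at 21, 22 and 24 nt, and 24-nt reads were at most 0.25 of those. Reads on all its annotated segments were added first. Another 3524 transposons reached 60 reads with a larger 24-nt fraction and serve below as the 24-nt-rich transposons. The members were thus chosen by their read number and read length summed over all libraries, so both are given as description, without a test. At the limit of 24-nt reads, 6 members had exactly 0.25, of which AT3TE58360 and AT5TE45810 had most reads, and the transposons just outside were AT4TE10840 and AT5TE40170, at 0.251 and 0.252. Just inside the limit of reads were AT3TE35700 and AT3TE56835 with 60 each, and just outside were AT1TE15245 and AT1TE38445 with 59 each.

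The libraries compare paps1-3 pollen with wild-type (WT) pollen, both of accession Col. PAPS1 encodes a nuclear poly(A) polymerase, the enzyme that adds the poly(A) tail to messenger RNAs, and paps1-3 is a mutant allele of it. There were 3 paps1-3 libraries, numbered 16, 20 and 26, and 3 WT libraries, numbered 15, 19 and 25. In each of 3 isolations the grains of the 2 genotypes were sorted from a shared sample, so genotype and sort gate are a single split and cannot be told apart. No label says that the isolations came from separate plants, and p-values therefore measure only the spread between these libraries. Grains hold a vegetative cell and sperm cells, and the libraries do not separate them.

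Transposons are normally silenced in plants by 24-nt small interfering RNAs, which the nuclear RNA polymerase IV pathway makes and which guide DNA methylation. In the pollen vegetative nucleus, where heterochromatin loosens, transposon transcripts are also cut into 21-nt and 22-nt small interfering RNAs by Dicer-like enzymes that otherwise handle viral and trans-acting RNAs. The microRNAs miR845a and miR845b, which match the primer-binding sites of long-terminal-repeat retrotransposons, are known triggers of such RNAs in Arabidopsis pollen.

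Both miR845 sequences are shown because 1 member, AT2TE30415, had a read profile close to that of the MIR845b locus (below). They are read from the RefSeq annotation and sequence of build TAIR10.1 and printed as DNA, 5′ to 3′, with capitals at the seed, bases 2 to 8. miR845a lies at chr4:12217457-12217477 and miR845b at chr4:12214086-12214107, both on the minus strand. The near-match is the 21-base stretch between AT2G17055 and AT2G17060, the genes on either side of AT2TE30415, with 3 differences from miR845a, which its capitals mark. It lies on the plus strand at chr2:7420032-7420052.
miR845a: cGGCTCTGataccaattgatg
miR845b: tCGCTCTGataccaaattgatg
near-match: TTgctctgataccaattgatT
The gap between those genes holds 7 transposon IDs in 3684 bases, so the near-match cannot be placed in AT2TE30415 itself. A stretch with at most 3 mismatches to miR845a, on either strand, was found in 3 of 345 intergenic intervals that held a member (0.870%). It was found in 11 of 1435 intervals with a 24-nt-rich transposon and no member (0.767%), and in 15 of all 7514 intervals with a transposon (0.200%). Their median lengths were 4079, 6167 and 2414.5 bases, and longer intervals offer more room for a match. The search used miR845a only, and miR845b, whose locus AT2TE30415 resembled, was not searched for. It was chosen after the values of AT2TE30415 were seen, and a match is only a match of letters.

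Across the 6 libraries the members held 1494768 reads, 38.8% of all transposon reads. Reads per member ranged from 73 to 79138, with a median of 401. The 341 members with under 500 reads had only 4.78% of the members' reads, and the 12 members with most reads had 19.9%. A few read-rich transposons and runs of neighbours weigh most in every summed value.

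The name given by the rule holds against 24 nt but not against all lengths. Of the members' reads, 20.2% were 21 nt and 12.5% were 22 nt, together 32.7%, and 5.94% were 24 nt. Reads of 18 to 20 nt were 38.7% and reads of 25 to 28 nt 13.5%. The length with most reads was 22 nt in 324 members, 21 nt in 210, 18 nt in 40, 20 nt in 35, 19 nt in 15 and 23 nt in 7. Reads of 21 and 22 nt made up over 50% of all reads in 159 members and under 25% in 44, with a median of 41.7% and a range of 0.779% to 98.3%. In the 24-nt-rich transposons, 26.2% of reads were 21 or 22 nt.

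The members fell into groups by place and profile, which were drawn after the values were seen. Members no more than 10 annotated IDs apart were joined into stretches, and 5 of these are called runs. The limit was not the same throughout. On chromosome 3 a run needed at least 4 members, on chromosome 5 it needed more, and stretches on the other chromosomes were not taken as runs. One run on chromosome 5, from AT5TE45255 to AT5TE45825, held 69 members among 112 transposon IDs and no gene, between AT5G33898 and AT5G34560. Another 4 runs, on chromosome 3, lay between AT3TE55280 and AT3TE58490, were flanked by AT3G33025 and AT3G42047, and held 4, 79, 28 and 34 members. The remaining 417 members are called dispersed, although some of them also lie beside other members.

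The chromosome 5 run had 487868 reads, 32.6% of the members' total, and a broad profile. Its commonest length was 22 nt (17.0% of reads), 21 nt had 11.8%, and 29.6% were 25 to 28 nt. In 59 of its 69 members 22-nt reads outnumbered 21-nt reads. Reads per member in the run ranged from 437 to 10652 with a median of 7927, and 19 of the 69 had between 10098 and 10652. AT5TE45435, the member with most reads in the run, had 1468, 826 and 1325 reads in the paps1-3 libraries, against 3005, 2258 and 1770 in the WT libraries.

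The chromosome 3 runs had 145 members with 377545 reads, 25.3% of the total, and a different profile. Here 21 nt led with 25.8%, 22 nt had 5.72% and 18 to 20 nt had 49.3%. In 138 of the 145 members 21-nt reads outnumbered 22-nt reads. AT3TE58190, among the 3 members with the smallest 22-nt share, had 38.8% of its 1886 reads at 21 nt and 0.424% at 22 nt.

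The dispersed members had 629355 reads, 42.1% of the total. By read sums 23.5% were 21 nt and 13.0% were 22 nt, but counted by member, 22 nt exceeded 21 nt in 280 of 417, and the median member had 47.7% of its reads at 21 and 22 nt. Of the 159 members with over 50% of reads at these lengths, 157 were dispersed and 2 lay in a run. Reads of 25 to 28 nt were 2.99%, against 29.6% in the chromosome 5 run.

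**Figure D1:**
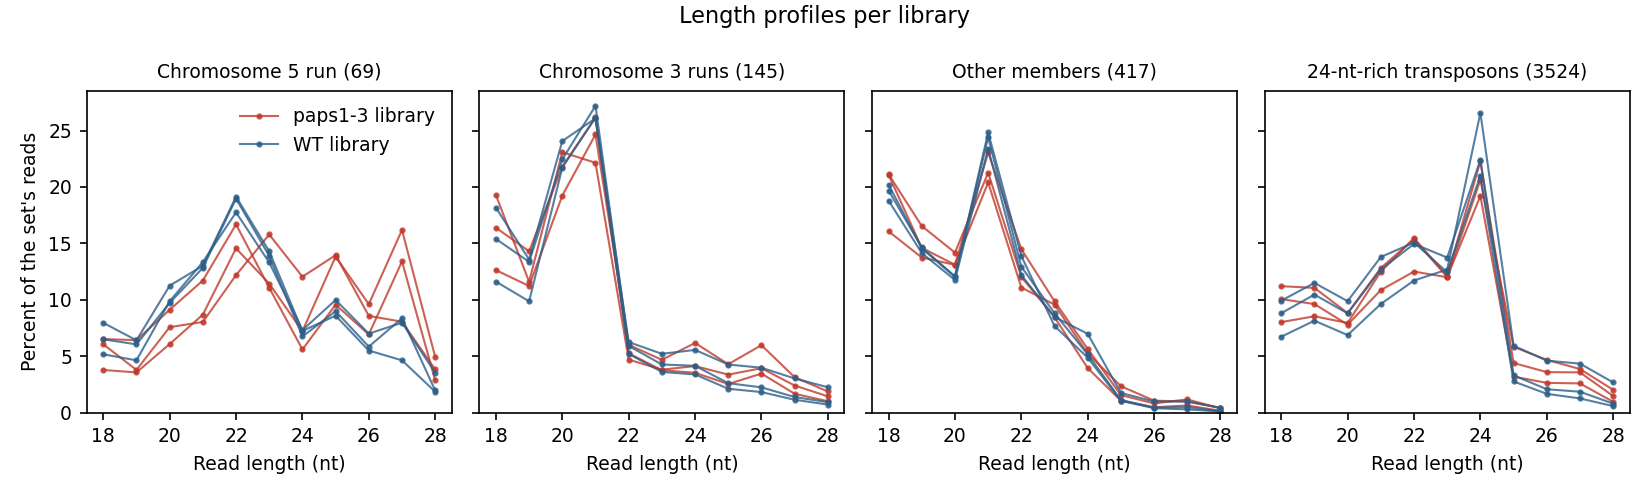
Percent of each set's reads (y axis) at each read length in nt (x axis), with 1 line per library, for the chromosome 5 run, the chromosome 3 runs, the dispersed members and the 24-nt-rich transposons. The chromosome 5 run peaks at 22 nt in WT with a long tail to 28 nt, the chromosome 3 runs and the dispersed members peak at 21 nt with many reads of 18 to 20 nt in every library except paps1-3 library 16, where they peak at 20 nt (23.1%) and 18 nt (21.1%), and the 24-nt-rich transposons peak at 24 nt.

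The spread over chromosomes was uneven. Chromosome 3 held 225 members (35.7%) and chromosome 5 held 160 (25.4%), and chromosomes 1, 2 and 4 held 89, 85 and 72. Of all transposon IDs, 20.7% lie on chromosome 3 and 21.4% on chromosome 5. Per 100 transposons that reached 60 reads, members numbered 20.7 on chromosome 3 and 18.3 on chromosome 5, and 11.3, 11.2 and 11.1 on chromosomes 1, 2 and 4. Without the runs the shares were 19.2% for chromosome 3 and 21.8% for chromosome 5, near those of all transposons. Runs were drawn only on chromosomes 3 and 5, so leaving them out lowers these shares by construction.

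**Figure D2:**
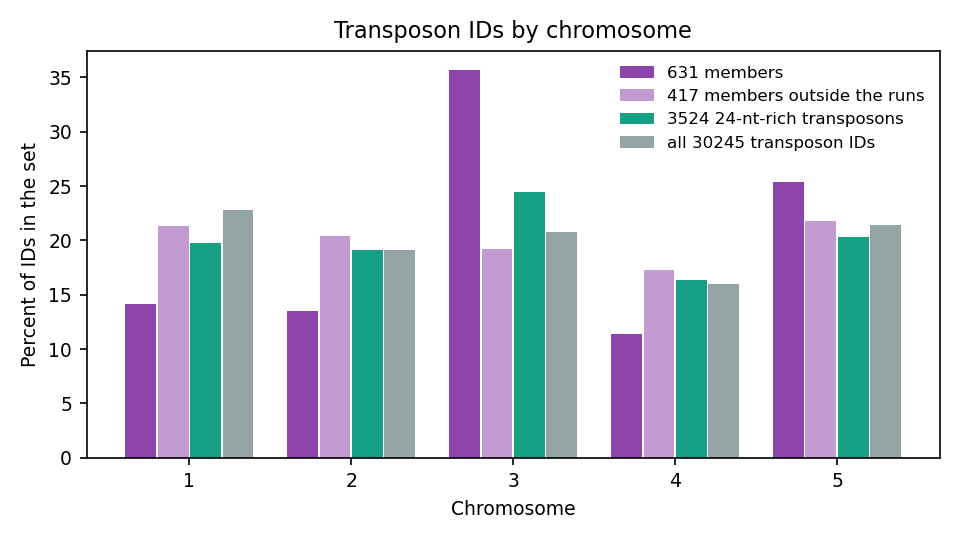
Percent of IDs (y axis) on each of the 5 chromosomes (x axis) for all 631 members, the 417 members outside the runs, the 3524 24-nt-rich transposons and all 30245 transposon IDs. Chromosome 3 held 35.7% of members, against 20.7% of all IDs, and 19.2% of the members outside the runs. Runs were drawn only on chromosomes 3 and 5, which lowers their shares outside the runs by construction.

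Members stood among other transposons. Of the 50 IDs on either side of a member in file order, a median of 84% were transposons, compared with 85% around 24-nt-rich transposons and 69% around all transposon IDs. Inside the chromosome 5 run the median was 98%, in the chromosome 3 runs 100%, and around dispersed members 59%. File order stands for genome order here: 27896 of 27970 neighbouring gene pairs (99.7%) were in the order of the RefSeq annotation.

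Many members shared their read pattern, and the sources used here do not say how reads with several genomic matches were counted. Over the 66 values of 6 libraries by 11 lengths, 88 members correlated at r above 0.99 with some other ID, and for 85 of these the best match was another member. Of the 88, 52 lay in the chromosome 3 runs, 9 in the chromosome 5 run and 27 elsewhere. The median r between 2 members was 0.922 in the chromosome 3 runs, 0.758 in the chromosome 5 run and 0.677 among dispersed members. These points share libraries and depth, so r is a description. Members with 1 pattern are not independent items, and a count of members counts such copies separately. AT4TE15960 and AT4TE15965, neighbours with 10020 and 10019 reads, had nearly the same counts throughout. AT5TE28285 and AT5TE28290, with 162 reads each, had the same count in every library and length.

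A gene matched at r above 0.99 for 7 members. AT2TE00095, AT3TE13080, AT4TE50990 and AT5TE37885, which lie on 4 chromosomes and had 9157, 7698, 8568 and 8803 reads, all matched the transcribed pseudogene AT3G06437 (r = 0.996 to 0.999). In each of these 18 nt was the commonest length, with 43.2% to 46.3% of reads. AT3TE08270 matched AT3G06435, its neighbour, at r = 0.994.

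A few members had a read profile close to that of a microRNA locus. AT2TE30415 had 816 reads, 97.1% of them 22 nt, 1.23% 21 nt and 0.613% 24 nt, the largest 22-nt share of 21-nt and 22-nt reads among members (98.8%). It had 64, 56 and 105 reads in paps1-3, against 136, 216 and 239 in WT. Its closest gene was MIR845b (r = 0.983), a locus with 13941 reads, 82.5% of them 22 nt. MIR845a, with 49802 reads, was mostly 21 nt (67.4%). At the other end, AT2TE15540 had 88.3% of its 120 reads at 21 nt and 0 of them at 22 nt, and its closest gene was MIR399a (r = 0.981), a phosphate-responsive microRNA. AT2TE43370 was closest to MIR868 (r = 0.986) and AT5TE55255 to MIR158a (r = 0.979). AT4TE60630 and AT2TE04840, with the next largest 22-nt shares, had 164 and 114 reads. A high r is easily reached by any 2 IDs with most reads at the same single length, and these matches below 0.99 were named after their values were seen.

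Of the 12 members with most reads, AT5TE43750 led with 79138 reads, 79.8% of them 18 to 20 nt, 19.9% 21 nt and 0.172% 22 nt. It had 788, 1435 and 742 reads per 1000000 counted reads (RPM) in the paps1-3 libraries, against 1718, 2347 and 1851 RPM in the WT libraries. All 3 paps1-3 values lay below all 3 WT values. AT2TE16215 followed with 55828 reads, led by 21 nt (33.98%), and its values of 809, 1151 and 730 RPM in paps1-3 overlapped 750, 1741 and 1200 RPM in WT. AT4TE13555, with 29751 reads and 23 nt as its commonest length (30.6%), also overlapped, at 465, 595 and 484 RPM in paps1-3 and 530, 725 and 591 RPM in WT.

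AT3TE47275 and its neighbour AT3TE47280 had 24802 and 23160 reads, with 53.6% and 47.0% at 21 nt, and shared a pattern (r = 0.987). AT3TE47275 had 209, 298 and 300 RPM in paps1-3, against 345, 721 and 856 RPM in WT, without overlap. The other 7 of the 12 were AT2TE17380, AT4TE13880, AT4TE14155, AT1TE51170, AT4TE16380, AT5TE40485 and AT5TE45435, with 10652 to 15544 reads each. In all 7 every paps1-3 library lay below every WT library in RPM. The same held for 48.2% of all 13464 IDs tested over all lengths. None of the 12 passed the test over all lengths described below.

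Summed over all members, small RNAs were a smaller part of the counted reads in paps1-3 pollen. Members had 20710, 22806 and 17143 RPM in the paps1-3 libraries, against 36114, 37083 and 32842 RPM in the WT libraries. The groups did not overlap, with means of 20220 ± 2864 RPM in paps1-3 and 35346 ± 2222 RPM in WT (SD, n = 3 each), a ratio of 0.572 ± 0.0886. Between libraries with adjacent numbers the ratio, paps1-3 over WT, was 0.573 for 16 and 15, 0.615 for 20 and 19 and 0.522 for 26 and 25. The chromosome 5 run had a ratio of 0.650 ± 0.158, the chromosome 3 runs 0.494 ± 0.136 and the dispersed members 0.563 ± 0.174, and within each set every paps1-3 library lay below every WT library. The 24-nt-rich transposons had a ratio of 0.509 ± 0.0768. Fewer cells of a type and less RNA per cell cannot be told apart in these bulk samples.

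That difference belongs to the scale of counted reads. Reads on nuclear IDs, with those of snRNA, snoRNA, rRNA and tRNA left out, numbered 987696, 902477 and 1497436 in paps1-3, against 2429343, 2542231 and 2481291 in WT, out of 5562287 to 9922763 counted reads in paps1-3 libraries and 9312167 to 10139424 in WT libraries. Per 1000000 of those nuclear reads, members had 165997, 140563 and 113596 reads in paps1-3 and 150732, 142334 and 123254 in WT. These values overlapped, with a ratio of 1.01 ± 0.215. With libraries scaled by TMM, which centres the bulk of IDs, the ratio was 1.03 ± 0.409, and per read on microRNA loci it was 1.28 ± 0.383, both with overlap. Per read on 24-nt-rich transposons, members had 1.02, 0.839 and 0.711 reads in paps1-3 and 0.812, 0.764 and 0.688 in WT, which also overlapped.

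**Figure D3:**
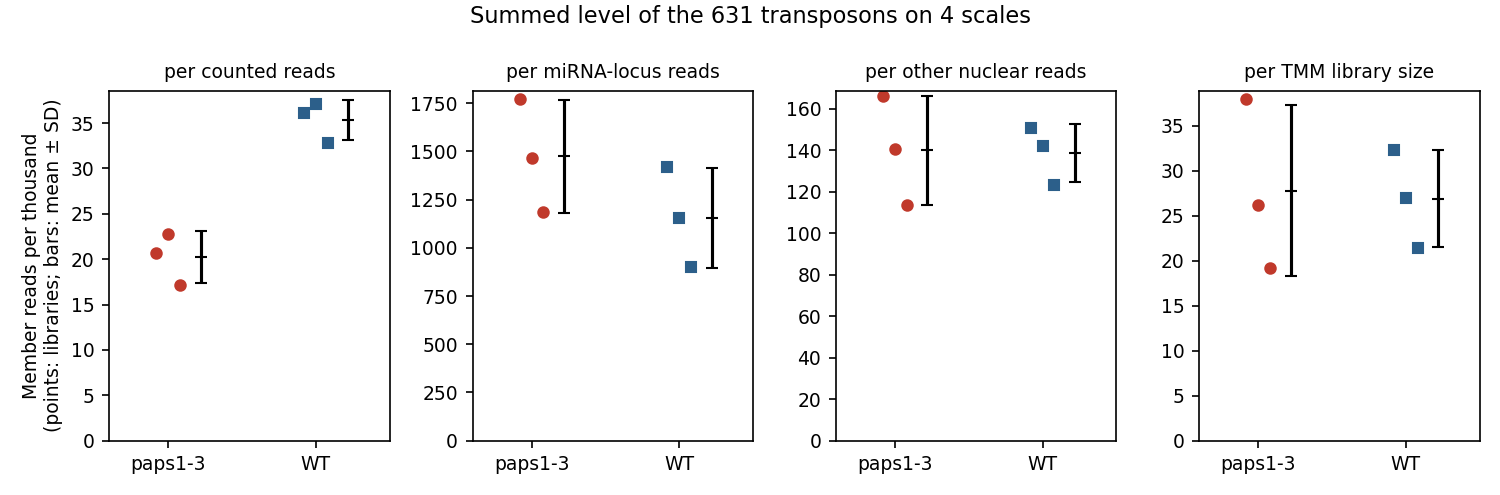
Summed reads of the 631 members per 1000 reads of each denominator (y axes), with 1 point per library, for paps1-3 (left) and WT (right), and the mean ± SD beside the points. On the scale of counted reads the 3 paps1-3 libraries lie below the 3 WT libraries, and on the other 3 scales the genotypes overlap.

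The difference in RPM was not the same at every length. At 21 nt members had 3270, 4445 and 3134 RPM in paps1-3, against 7456, 8040 and 7174 RPM in WT, a ratio of 0.479 ± 0.0994. At 22 nt the ratio was 0.511 ± 0.0817 and at 24 nt 0.603 ± 0.193. At each length from 18 to 24 nt all paps1-3 libraries lay below all WT libraries, with ratios of 0.479 to 0.603. From 25 to 28 nt the genotypes overlapped, with ratios of 0.784 to 0.989. These borders differed between the sets. The chromosome 3 runs overlapped from 25 to 28 nt, the chromosome 5 run from 23 to 28 nt, and dispersed members at 18 to 20 nt and 26 to 28 nt. The 24-nt-rich transposons overlapped at 18 nt and from 26 to 28 nt. A difference between these lengths is given as values only, with no test.

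**Figure D4:**
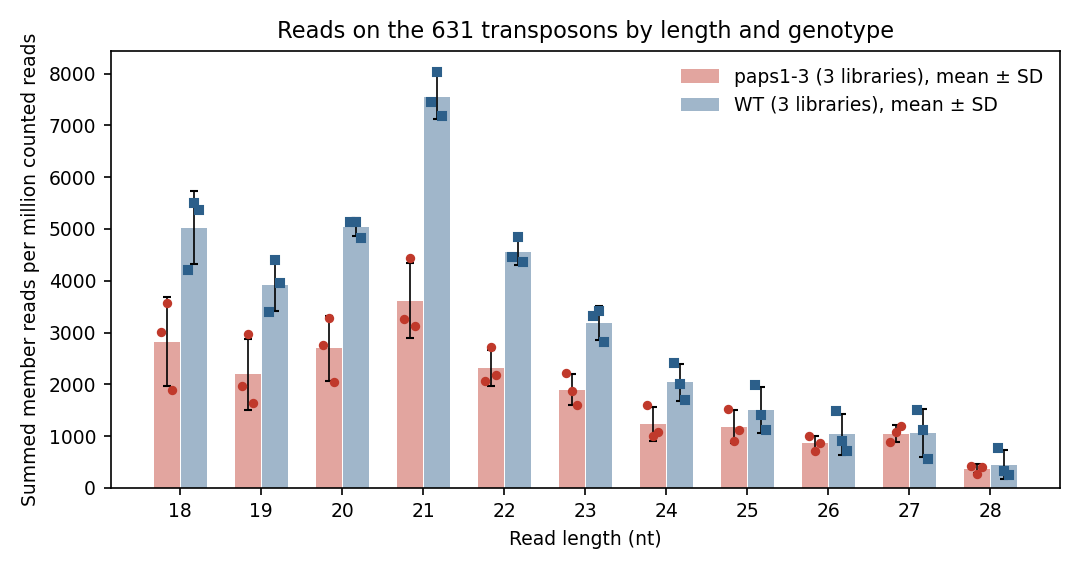
Summed member reads per 1000000 counted reads (y axis) at each read length in nt (x axis) for paps1-3 (left bars, circles) and WT (right bars, squares), with bars at the mean of 3 libraries, error bars of 1 SD and 1 point per library. The paps1-3 points lie below all WT points from 18 to 24 nt and overlap them from 25 to 28 nt.

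As shares of the members' own reads, which do not depend on library scale, 21-nt reads made up 15.8%, 19.5% and 18.3% in paps1-3, against 20.6%, 21.7% and 21.8% in WT. The genotypes did not overlap (17.9% ± 1.89 in paps1-3 and 21.4% ± 0.650 in WT, SD, n = 3 each). Reads of 21 and 22 nt together were 25.8%, 31.4% and 31.0% in paps1-3, against 33.0%, 34.7% and 35.1% in WT, again without overlap. Within the chromosome 5 run these shares were 20.2%, 28.4% and 23.3% in paps1-3, against 31.1%, 31.8% and 32.2% in WT.

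Reads of 25 to 28 nt in the chromosome 5 run lay higher in paps1-3, at 34.5%, 32.8% and 44.6% in paps1-3, against 28.5%, 25.2% and 20.6% in WT. In the chromosome 3 runs and the dispersed members the shares of 21-nt and 22-nt reads overlapped between genotypes, although 21 nt alone did not overlap in dispersed members (20.4%, 21.3% and 23.05% in paps1-3, against 23.4%, 24.4% and 24.8% in WT). In 24-nt-rich transposons 21-nt reads were 10.9%, 12.8% and 12.5% in paps1-3 and 9.64%, 12.7% and 13.8% in WT, which overlapped. Of the members' reads at 21 and 22 nt, 22 nt made up 38.7%, 38.0% and 41.1% in paps1-3, against 37.4%, 37.6% and 37.8% in WT, without overlap. Within the chromosome 5 run, the chromosome 3 runs and the dispersed members, each taken alone, this share overlapped between genotypes. The 24-nt fraction of 21-nt, 22-nt and 24-nt reads overlapped in members, at 23.1%, 12.2% and 16.9% in paps1-3 and 16.8%, 13.5% and 12.9% in WT.

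Counted member by member, 625 of 631 had a lower mean RPM in paps1-3 than in WT, with a median ratio of 0.490 (range 0.0579 to 4.61). In 289 members all paps1-3 libraries lay below all WT libraries, 45.8%, and in 3 they lay above. Of all 13464 IDs tested over all lengths, 48.2% lay below and 8.18% above in this way, so the members' share below is near that of IDs in general. The 289 comprised 196 of the 214 members in runs and 93 of the 417 dispersed ones, whose reads are fewer.

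Single members were tested over all lengths with edgeR's robust quasi-likelihood test on TMM-scaled counts of all IDs, with Benjamini-Hochberg adjusted p of at most 0.05 as the limit. Of 630 members that passed the count filter, 7 rose and 14 fell in paps1-3. Of all 13464 IDs, 14.3% were called higher and 3.99% lower, so the members' counts are below the background for higher and near or under it for lower. The rule summed reads over both genotypes, and WT libraries held more reads on members, so a member high in WT met it more easily. Taking each genotype alone, 296 of the 631 members reached 60 reads in both, 1 in paps1-3 only and 226 in WT only, and 108 did so only in the sum. Of the 14 that fell, 9 reached 60 reads in WT only and 2 met the limit of 24-nt reads in WT only. Of the 7 that rose, 1 reached 60 reads in paps1-3 only and 4 met the limit of 24-nt reads in paps1-3 only. Neither count is therefore read as a result about the members. The median log2 fold change was -0.22 over members, -0.15 over all IDs and -0.35 over 24-nt-rich transposons, of which 33 rose and 198 fell among 3523 tested. The member median was -0.07 without paps1-3 library 26, -0.13 without WT library 15 and -0.15 without WT library 25, and that of all IDs was -0.03 without WT library 15 and -0.06 without WT library 25. Both directions are relative to the TMM scale. With total-read scaling the median of all IDs moved to -0.94 and of members to -1.03, and 2 members were called higher and 301 lower, beside 6.02% and 40.3% of all IDs. With scaling to microRNA loci the medians were 0.23 and 0.13 and the counts 10 higher and 6 lower, beside 21.9% and 1.35% of all IDs. Leaving out a library gave 4 (without paps1-3 library 26), 9 (without paps1-3 library 20), 7 (without WT library 25) or 22 (without WT library 15) lower calls, and 4 higher calls without paps1-3 library 26. With adjacent libraries as a replicate block, 9 members were higher and 47 lower, including all 14, beside 18.8% and 8.57% of all IDs.

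No member of a run was called over all lengths on the TMM scale. With total-read scaling 31 of the 69 members of the chromosome 5 run and 143 of the 145 of the chromosome 3 runs were called lower, beside 40.3% of all IDs. With the replicate block 1 and 6 were called lower, beside 8.57% of all IDs. All 21 called members were dispersed, and of the 14 that fell, 21 nt was the commonest length in 11, compared with 93 of all 417 dispersed members. The rule used 21-nt reads and 9 of the 14 met its limit of reads in WT only. That count is thus not read as a trait of the members that fell. Dispersed members had a median of -0.27, the chromosome 3 runs -0.20 and the chromosome 5 run 0.23. The chromosome 5 median had the opposite sign under total-read scaling (-0.62) and was 0.53 under scaling to microRNA loci. Single libraries moved these medians and turned the sign in both groups of runs. In the chromosome 5 run the median was -0.18 without paps1-3 library 16, 0.01 without WT library 25, 0.42 without paps1-3 library 20, 0.49 without paps1-3 library 26 and 0.68 without WT library 15. In the chromosome 3 runs it was -0.56 without paps1-3 library 16, -0.40 without WT library 25, -0.11 without paps1-3 library 20, 0.10 without paps1-3 library 26 and 0.23 without WT library 15. In dispersed members it was -0.05 without WT library 25, -0.06 without paps1-3 library 16, -0.13 without WT library 19 and -0.40 without WT library 15.

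AT2TE15525 and AT2TE15540, close to each other between AT2G07690 (MCM5, a replication licensing factor) and AT2G07750, had the largest decreases. AT2TE15525 had 4, 4 and 10 reads in the paps1-3 libraries, against 48, 107 and 213 in the WT libraries. TMM-scaled values were 0.967 ± 0.156 in paps1-3 and 9.20 ± 5.56 in WT, as counts per 1000000 (CPM; SD, n = 3 each), which is -3.20 as a log2 fold change (SE 0.50, adjusted p = 0.0010 with edgeR). All paps1-3 values were under all WT values, and WT library 25 was the highest. AT2TE15540 had 1, 3 and 2 reads in paps1-3, against 15, 48 and 51 in WT (log2 fold change -3.05, SE 0.59, edgeR adjusted p = 0.0034). AT4TE21030 had 1, 2 and 1 reads in paps1-3, against 13, 25 and 37 in WT (-3.02, SE 0.60, edgeR adjusted p = 0.0040). These 3 members kept their call without any 1 library. Each reached 60 reads at 21, 22 and 24 nt only through WT, with 13, 5 and 4 such reads in paps1-3, against 315, 102 and 68 in WT. Their tests, with or without 1 library left out, are thus not read as support.

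AT5TE39155 had 5, 6 and 14 reads in paps1-3, against 85, 33 and 149 in WT, with -2.32 as its log2 fold change (SE 0.52, adjusted p = 0.010 with edgeR). It passed in 4 of 6 fits without 1 library, with adjusted p up to 0.065. It and the next 2 members also reached 60 reads only through WT, so their tests are not read as support either. The neighbours AT5TE54675 and AT5TE54685 lie between AT5G37950 and AT5G37960 and have nearly the same profile, with 61.6% and 61.1% of reads at 21 nt. AT5TE54675 had 8, 4 and 11 reads in paps1-3, against 48, 75 and 96 in WT, and fell by 2.11 on the log2 scale (SE 0.34, edgeR adjusted p = 0.0010). AT5TE54685 had 5, 9 and 9 reads in paps1-3, against 30, 77 and 81 in WT (log2 fold change -1.86, called in 5 of 6 fits without 1 library). They correlated at r = 0.975 and whether they share reads was not tested. The other 8 that fell had log2 fold changes of -1.27 to -0.73 and lost the call in at least 1 of the fits without a library. They were AT1TE42925, AT5TE13390, AT2TE22175, AT4TE10320, AT5TE70175, AT5TE52390, AT2TE13755 and AT2TE13750.

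AT4TE20095 had the largest increase, with 91, 93 and 130 reads in paps1-3, against 23, 38 and 26 in WT. TMM-scaled values were 18.4 ± 3.28 CPM in paps1-3 and 2.26 ± 0.535 CPM in WT (SD, n = 3 each), which is 3.01 as a log2 fold change (SE 0.25, adjusted p = 1.9e-05 with edgeR), and the libraries did not overlap. Its reads were mostly 18 to 20 nt (79.3%), and it sat at the limit of the rule with a 24-nt fraction of 0.25. AT3TE44700 had 109, 141 and 191 reads in paps1-3, against 77, 118 and 108 in WT (log2 fold change 1.69, SE 0.22, edgeR adjusted p = 0.00021), with 59.5% of reads at 18 to 20 nt. AT2TE25250, with 53.9% of reads at 21 nt, had 22, 28 and 50 reads in paps1-3, against 20, 24 and 23 in WT (log2 fold change 1.66, edgeR adjusted p = 0.00063). Each of these 3 met the limit of 24-nt reads only through paps1-3, with fractions in WT of 0.367, 0.333 and 0.298. AT2TE25250 also reached 60 reads only through paps1-3, with 85 such reads against 47 in WT. The tests of these 3 members are thus not read as support.

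These 3 were also the members whose RPM in every paps1-3 library exceeded that in every WT library. Under total-read scaling AT4TE20095 and AT3TE44700 kept the call, with log2 fold changes of 2.20 and 0.90, and AT2TE25250 did not (0.89, edgeR adjusted p = 0.063). The other 4 that rose were AT3TE51690, AT2TE27820, AT1TE41800 and AT1TE62440, with log2 fold changes of 0.80 to 1.12. AT2TE27820 had 331, 321 and 636 reads in paps1-3, against 362, 498 and 578 in WT. With total-read scaling their log2 fold changes were 0.33 or less and none passed the limit.

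**Figure D5:**
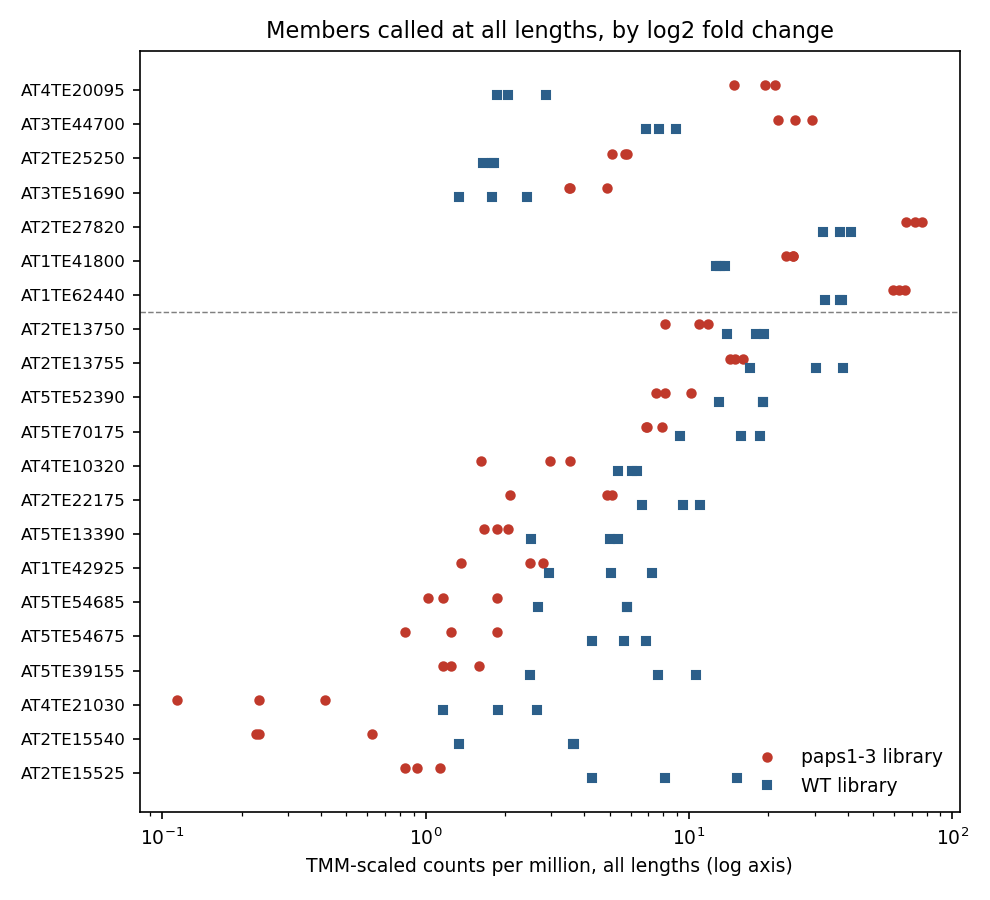
TMM-scaled counts per 1000000 over all lengths on a log axis (x axis) for the 21 members called with edgeR (y axis, ordered by log2 fold change), with circles for paps1-3 libraries and squares for WT libraries. The 7 members above the dashed line rose and the 14 below it fell, and within each member the genotypes do not overlap.

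At 21 nt, 377 members passed the count filter, and 6 rose and 15 fell, beside 14.5% higher and 4.68% lower among all 3181 IDs tested. The median log2 fold change was -0.50 over members and -0.13 over all IDs. The rule used 21-nt reads, pooled over both genotypes, so these counts and medians are not read as a result about the members. Without WT library 15 these medians were -0.12 and -0.01, without paps1-3 library 26 they were -0.35 and -0.19, and without libraries 15 and 16 they were -0.20 and -0.02. Of the 15 that fell, 8 reached the 60 reads of the rule in WT only, among them AT2TE15525 and AT2TE15540. AT2TE25250, which rose, did so in paps1-3 only. Tests of these members at 21 nt are not read as support. AT2TE15525 had 3, 2 and 4 reads of 21 nt in paps1-3, against 27, 68 and 145 in WT (log2 fold change -3.60, SE 0.56, edgeR adjusted p = 0.00052). Of the 14 members that fell over all lengths, 9 also fell here. AT2TE15540, with 1, 2 and 2 reads in paps1-3, against 13, 43 and 45 in WT, fell too (-3.20, edgeR adjusted p = 0.0011), and AT2TE25250, with 18, 15 and 31 reads in paps1-3, against 8, 9 and 9 in WT, rose (2.27, edgeR adjusted p = 0.00044). In the chromosome 3 runs 3 members fell, AT3TE56910, AT3TE56955 and AT3TE56500, named after their values were seen. AT3TE56955 had 7, 11 and 11 reads in paps1-3, against 48, 60 and 38 in WT (-1.32, edgeR adjusted p = 0.028). It and AT3TE56910 reached 60 reads in WT only, and AT3TE56500 met the limit of 24-nt reads in WT only. Tests of these 3 members are thus not read as support either. With total-read scaling 1 member was higher and 254 were lower, beside 6.26% and 31.6% of all IDs. With scaling to microRNA loci 8 were lower, beside 2.04%. With the replicate block 7 were higher and 55 lower, beside 22.3% and 11.1%, and of the 55, 23 lay in the chromosome 3 runs and 4 in the chromosome 5 run. With full library sizes the block gave 124 lower, beside 16.3% of all IDs, of which 59 lay in the chromosome 3 runs and 14 in the chromosome 5 run. The lower count was 8 without paps1-3 library 26, 9 without WT library 19 and 29 without WT library 15. Higher calls numbered 3 without paps1-3 library 20, 2 without paps1-3 library 26 and 2 without WT library 19.

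At 22 nt, 4 of 383 members rose and 5 fell, beside 12.8% and 4.05% of 3231 IDs. The medians were -0.40 over members and -0.16 over all IDs. The rule used 22-nt reads, pooled over both genotypes, so these counts and medians are not read as a result about the members. AT3TE44700 had 25, 23 and 53 reads of 22 nt in paps1-3, against 8, 11 and 6 in WT (log2 fold change 2.91, SE 0.38, edgeR adjusted p = 6.1e-05). AT5TE39155 had 1, 2 and 2 reads in paps1-3, against 19, 13 and 44 in WT (-2.91, edgeR adjusted p = 0.0061). It met the rule only through WT, and AT3TE44700 met the limit of 24-nt reads only through paps1-3, so neither test is read as support. AT4TE13555, among the most read members, had 585, 554 and 826 reads in paps1-3, against 621, 845 and 673 in WT (0.87, SE 0.24, edgeR adjusted p = 0.021), and under total-read scaling 0.22 with an edgeR adjusted p of 0.45, and it kept the call in 1 of 6 fits without a library. With total-read scaling 1 member was higher and 168 were lower, beside 6.16% and 25.5% of all IDs, and with scaling to microRNA loci 7 were higher and 1 lower, beside 22.7% and 1.49%. The replicate block gave 5 higher and 51 lower, beside 18.8% and 11.2%. The lower count was 33 without WT library 15, 9 without WT library 25, 3 without WT library 19 and 2 without paps1-3 library 20 or 26. There was 1 higher call without any 1 of paps1-3 libraries 16, 20 and 26 or WT libraries 19 and 25.

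At 24 nt, the length the rule keeps low, 215 members could be tested, and 3 rose and 7 fell, beside 16.8% and 6.23% of 3593 IDs. Among 1967 24-nt-rich transposons tested at this length, 20 rose and 142 fell. The median was 0.18 over members, -0.09 over all IDs and -0.30 over 24-nt-rich transposons. The member median was 0.0046 without paps1-3 library 16, 0.0052 without WT library 25, 0.06 without libraries 15 and 16 and 0.40 without WT library 15. Of the 7 that fell, 6 lay in the chromosome 3 runs. AT3TE55845 had 5, 6 and 3 reads of 24 nt in paps1-3, against 50, 32 and 24 in WT (log2 fold change -1.59, SE 0.41, edgeR adjusted p = 0.011). AT3TE55690, of the same run, rose by the test, with 17, 14 and 33 reads in paps1-3, against 35, 22 and 19 in WT (1.03, edgeR adjusted p = 0.012), and had 0.06 under total-read scaling. AT2TE00095, which shares its pattern with a pseudogene, had 3, 9 and 11 reads in paps1-3, against 47, 62 and 55 in WT (-1.56, edgeR adjusted p = 0.0085). With total-read scaling 0 members were higher and 100 lower, beside 5.82% and 62.3% of all IDs, and with scaling to microRNA loci 1 was higher and 2 were lower, where 1.36% of all IDs were lower. The block gave 7 higher and 7 lower, beside 19.5% and 8.29%. Higher calls numbered 22 without paps1-3 library 20, 11 without WT library 15, 1 without paps1-3 library 26 or WT library 25 and 0 without WT library 19, and lower calls 0 without paps1-3 library 26 and 4 without paps1-3 library 16 or WT library 19.

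A last test asked whether the balance of 24-nt against 21-nt and 22-nt reads differed between genotypes within an ID. Of 431 members with enough reads, 1 moved towards 24 nt and 2 away from it in paps1-3, beside 0.333% and 0.116% of 6010 IDs. The rule used this same balance, pooled over both genotypes, so the counts are not read as a result about the members. AT2TE27820 had 24-nt fractions of 5.80%, 4.39% and 4.77% in paps1-3, against 25.99%, 11.8% and 11.8% in WT, a shift of -1.82 on the log2 scale (SE 0.41, edgeR adjusted p = 0.0071). AT1TE41800 had 10.7%, 7.14% and 8.40% in paps1-3, against 36.2%, 23.1% and 23.8% in WT. Both had more 21-nt and 22-nt reads relative to 24-nt reads in every paps1-3 library than in any WT library. AT5TE39155 had 2, 0 and 5 reads of 24 nt against 3, 4 and 5 of 21 and 22 nt in paps1-3, and 2, 2 and 1 against 75, 28 and 134 in WT. It met the rule only through WT, since 7 of its 19 reads at these lengths were 24 nt in paps1-3, so it is given as values with no test. Its paps1-3 library 20, at 0%, lay below the WT libraries. AT1TE41800, at 0.268 in WT, met the limit of 24-nt reads only through paps1-3, so it too is given as values with no test. Both calls away from 24 nt were lost in some fits without a library, AT2TE27820 in 3 and AT1TE41800 in 4 of 6. Without 1 library, calls away from 24 nt numbered 0 (without paps1-3 library 20 or 26 or WT library 19), 1 (without paps1-3 library 16) or 4 (without WT library 15). Calls towards 24 nt numbered 0 without paps1-3 library 16 or 26 or WT library 19 or 25, and 3 without WT library 15.

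Genes of the pathways that make or use these small RNAs were counted as loci of small RNA reads, which do not measure their messenger RNAs. Of 23, from DCL1 to DRM2 with MIR845a and MIR845b, 13 passed the filter over all lengths and none rose or fell with edgeR (0 at an unadjusted p under 0.05, 7 lower with total-read scaling, and 1 higher, DCL1, with scaling to microRNA loci, at a log2 fold change of 0.71 and an edgeR adjusted p of 0.042). MIR845b had 1057, 790 and 1780 reads in paps1-3, against 3041, 3433 and 3840 in WT (log2 fold change -0.39, edgeR adjusted p = 0.40). MIR845a had 4692, 3493 and 7326 reads in paps1-3, against 6915, 12446 and 14930 in WT (0.01, edgeR adjusted p = 0.98). Neither passed the test on the TMM scale, and both were among the 7 lower with total-read scaling (MIR845b -1.23, edgeR adjusted p = 0.0027, and MIR845a -0.86, edgeR adjusted p = 0.028).

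PAPS1 itself (AT1G17980) had 0, 0 and 1 reads in paps1-3, against 7, 4 and 4 in WT, too few to test. Reads on 4 vegetative-cell genes summed to 5663 to 12304 in paps1-3 and 11766 to 13416 in WT. Reads on 5 sperm-cell genes summed to 44 to 88 in paps1-3 and 125 to 138 in WT, on 7 tapetum genes to 10 to 14 in paps1-3 and 23 to 35 in WT, and on 4 leaf genes to 18 to 63 in paps1-3 and 98 to 124 in WT. The tapetum gene A9 had 0 reads in every paps1-3 library and at most 2 in a WT library. In the test 2 vegetative-cell genes rose (VEX1 and PPME1) and PTEN1 fell, and of the sperm-cell genes DAZ2 fell. Their part in the members' values was not tested.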

How the data were processed

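Each deposited table gives, per the file headers, the count of reads on every annotated segment at each length from 18 to 28 nt, as whole numbers that are not normalised. The submitters' processing notes name bedtools, SAMtools, BWA and Trimmomatic and the build TAIR10. The sources used here do not give the treatment of strand and of reads with several matches. Counts were summed per ID (60936 IDs). The files give no transposon coordinates or families. The members and lists were chosen with earlier results of these data known. Tests used edgeR 4.0.16 in R 4.3.3 (TMM, filterByExpr, no block), with library sizes summed over tested IDs. A first run used full library sizes and was replaced after its results were seen. Alternatives included DESeq2 1.42.0, limma 3.58.1 (length shift), other scalings and filters. TMM factors were 0.546 to 0.893 in paps1-3 and 1.12 to 1.53 in WT. The genotype test without a block and the length-shift test were tried on simulated data, where small changes of length balance in low-count IDs were mostly missed. The other steps were not simulated. Adjacent libraries deviated together (r = 0.428 for 16 and 15, 0.262 for 20 and 19, 0.252 for 26 and 25, others -0.319 to 0.130) and were taken as isolations for the replicate block, as no label pairs them. Members were named by most reads (12, and the first of each chromosome), largest changes without overlap (6 each way), smallest p at each length (3), extreme 22-nt share (3 each) and nearness to the thresholds (2).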

Additional observations from a re-analysis of the deposited data

How the results depend on the processing

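Which members were called depended on scaling, filter, block and single libraries, and the cause was not tested. Call counts given without a share of all IDs show only how far the calls moved. With total-read scaling the members called higher and lower were 2 and 301 over all lengths, 1 and 254 at 21 nt, 1 and 168 at 22 nt, and 0 and 100 at 24 nt. Scaling to microRNA loci gave 6 lower over all lengths, 8 lower at 21 nt, 7 higher and 1 lower at 22 nt, and 1 higher and 2 lower at 24 nt. DESeq2 gave 3 higher at 21 nt, 1 lower at 22 nt and 2 lower at 24 nt. Without a count filter there was 1 higher at 21, 22 and 24 nt and 3 lower at 22 nt, and 0 towards and 1 away from 24 nt in the length shift. The stricter filter gave 2 lower at 22 nt. The replicate block gave 47, 55 and 51 lower over all lengths, at 21 nt and at 22 nt, and 7 higher at 24 nt. With full library sizes the block gave 47, 124 and 50 lower and 7 higher, so its count at 21 nt rests on how libraries are sized, and without a block full sizes gave 5 higher and 17 lower at 21 nt. Without libraries 15 and 16, 23 members were lower at 21 nt, 26 lower at 22 nt and 8 higher at 24 nt. TMM per column gave 4 and 4 shifts of length. Leaving out 1 library in turn gave 4 to 7 higher and 4 to 22 lower over all lengths, 2 to 6 and 8 to 29 at 21 nt, 1 to 5 and 2 to 33 at 22 nt, 0 to 22 and 0 to 7 at 24 nt, and 0 to 3 and 0 to 4 for the shift. The ratio of summed levels was 1.03 with TMM, 1.28 per microRNA-locus read and 1.01 per other nuclear read, and 0.535 to 0.616 in RPM without 1 library. With each member weighted equally, reads of 21 and 22 nt were 40.7% in paps1-3 and 41.5% in WT. Summed over reads without the runs, they were 34.1% in paps1-3 and 37.2% in WT. With at least 200 reads, 46.6% of members lay on chromosome 3, and without the runs 19.2% lay there and 21.8% on chromosome 5. No alternative turned the direction of a call on the members picked by rule. Outside that rule, total-read scaling turned the sign of 2 called values: AT1TE62440 over all lengths (0.80 with TMM and -0.0022) and AT1TE61475 at 24 nt (0.82 with TMM and -0.14). Many members have under 100 reads in a library, which limits tests of single members, and a call that is missing does not show that a member was unchanged. The runs were defined after seeing the data.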

Other observations

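AT4TE33660 and AT2TE38575, which no rule above names, had 88.6% of 4541 and 81.6% of 4885 reads at 18 nt. They matched AT3G42950 (r = 0.992) and AT1G63250 (r = 0.991), genes on other chromosomes.

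AT4TE12750 had 79.7% of its 5819 reads at 20 nt, and its closest gene was the tRNA gene AT1G15090 (r = 0.973). These members, chosen after their values were seen, met the rule with few 24-nt reads while only a small part of their reads were 21 or 22 nt.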
